A study of Mus musculus with 60 samples.

Results

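Mutant and wild-type tailbuds of mouse embryos with 16 somites were compared across all transcripts, with 5 mutant embryos against 4 wild-type embryos. These 9 RNA sequencing libraries were chosen by genotype and somite number in the sample titles and are 9 of the 60 samples of the series. Another 18 tailbuds, from embryos with 12, 13 or 14 somites (12 wild-type and 6 mutant), were used for comparison only, and 33 chromatin libraries of embryonic stem cells were not analysed here. Genotypes are labelled only WT and MUT; the mutation, JARID2 K116R, comes from the series' design text. Each library came from total RNA of 1 embryo's tailbud, so the spread within a group is the spread between embryos. Litter, sex, strain, age in days and batch are not given in the labels used here, so their part in any difference was not tested.

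Somites are the paired blocks of mesoderm that form one after another along the trunk, and their number stages the embryo. The tailbud is the growing posterior end of the embryo, where progenitor cells feed the forming spinal cord and somites. JARID2 joins Polycomb repressive complex 2 (PRC2) as an accessory protein, and that complex methylates lysine 27 of histone H3 on chromatin of silenced developmental genes. JARID2 is itself methylated by PRC2 at lysine 116, and the methylated lysine stimulates the enzyme allosterically. A K116R substitution replaces that lysine with arginine.

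The tables list Ensembl transcripts with no gene symbol, and 0 of the identifiers matched the gene tables at hand. Every result below is therefore per transcript. Neither the targeted gene nor markers of the tailbud, or of tissues beside it, could be looked up, so the labelled genotype and tissue were not checked here. A bulk library also cannot tell apart fewer cells of a type and less RNA per cell. Apart from 4 transcripts picked by a rule, transcripts are described by their length.

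The wild-type libraries held 22629915 to 24865712 estimated counts and the mutant libraries 20908470 to 24338885. The lowest total belonged to mutant embryo 1, which also stood apart in 3 other measures. Its log2 CPM (read counts scaled to library size) correlated with those of the other mutants at a mean r of 0.814, a value across transcripts. The other 4 mutants had 0.864 to 0.869 and the wild-type embryos 0.886 to 0.89 with their own groups. The means of those 4 mutants include embryo 1, and with the wild-type embryos they had 0.876 to 0.89. Mutant embryo 1 lay further than 2-fold outside the range of all 8 other embryos at 721 of the 9716 transcripts averaging 10 CPM or more, which is 7.42%, against 5 to 66 transcripts for each other embryo. It was below the other embryos at 602 of these, 82 of them at a count of 0, and above them at the others. Of 23888 transcripts averaging 1 CPM or more it had a count of 0 at 1480, against 569 to 735 in the other embryos. Those above the other embryos had a median length of 1138 bases and the 602 below them 2411.5 bases, beside 2244.5 bases for all 9716. Each result is therefore given for all 9 embryos and for the 8 without mutant embryo 1.

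**Figure D1:**
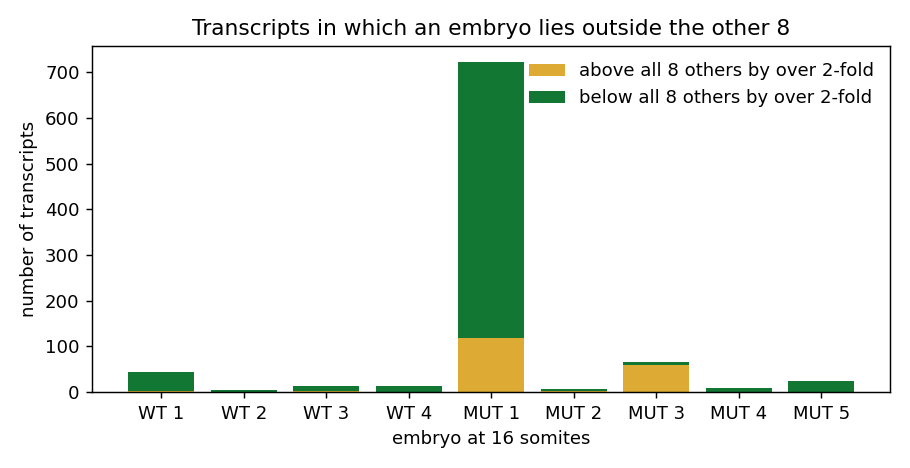
Number of transcripts, of the 9716 averaging 10 CPM or more, in which each embryo at 16 somites lay more than 2-fold above (yellow) or below (green) all 8 others. Mutant embryo 1 has 721 such transcripts, and the other 8 embryos have 5 to 66 each.

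No transcript passed the test of genotype. With all 9 embryos 31283 transcripts were tested with edgeR's quasi-likelihood test, and 0 (0%) had a Benjamini-Hochberg adjusted p under 0.05. The smallest adjusted p was 0.508. An unadjusted p under 0.05 was found for 1263 transcripts (4.04%), where 1564 would be expected if none differed, and 781 of these (2.5%) were higher in mutants and 482 (1.54%) lower. Without mutant embryo 1, 30423 transcripts were tested, again 0 (0%) passed, and the smallest adjusted p was 0.163. The unadjusted count was then 1653 (5.43%), against 1521 expected, with 923 higher (3.03%) and 730 lower (2.4%). DESeq2 was run on the same libraries without edgeR's filter, so its set of transcripts was another one. With 9 embryos it called 112 (83 higher and 29 lower) of the 40955 to which it gave an adjusted p. With 8 embryos it called 146 (90 higher and 56 lower). One genotype had a count of 0 in every embryo for 81 of those 112 and for 77 of those 146. No embryo had a count of 0 for 22 of the 112 (14 higher and 8 lower) and for 62 of the 146 (40 higher and 22 lower). With 9 embryos limma voom with quality weights called 0 of the 31283 transcripts, with a smallest adjusted p of 0.697. It gave 2055 an unadjusted p under 0.05 (1049 higher and 1006 lower), above the 1564 expected, so the shortfall with edgeR depended on the test.

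The direction among the transcripts of small p depended on how the libraries were scaled. With upper quartile factors in place of TMM factors, 661 transcripts were higher and 564 lower at an unadjusted p under 0.05 with 9 embryos. With 8 embryos the split turned to 694 higher and 931 lower. Scaled by library totals alone, 435 were higher and 953 lower with 9 embryos, and 505 were higher and 1480 lower with 8. That scaling moved the median log2 difference of all tested transcripts from 0.009 to -0.066 with 9 embryos and from 0.005 to -0.059 with 8.

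Which transcripts had a small p depended on mutant embryo 1. Among the 30423 transcripts tested both ways, 1219 had an unadjusted p under 0.05 with 9 embryos and 1653 with 8, and 925 had it in both. The shared transcripts were 75.9% of the first list and 56% of the second. Of the 602 transcripts at which embryo 1 lay below the others, picked for that extreme value, 4 had an unadjusted p under 0.05 with it and 83 without it. Where it lay above the others the numbers were 12 and 11, and over all 9716 transcripts averaging 10 CPM or more they were 632 and 974. The median size of the log2 difference over all tested transcripts was 0.238 with 9 embryos and 0.193 with 8, and the common biological coefficient of variation was 0.588 and 0.501.

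**Figure D2:**
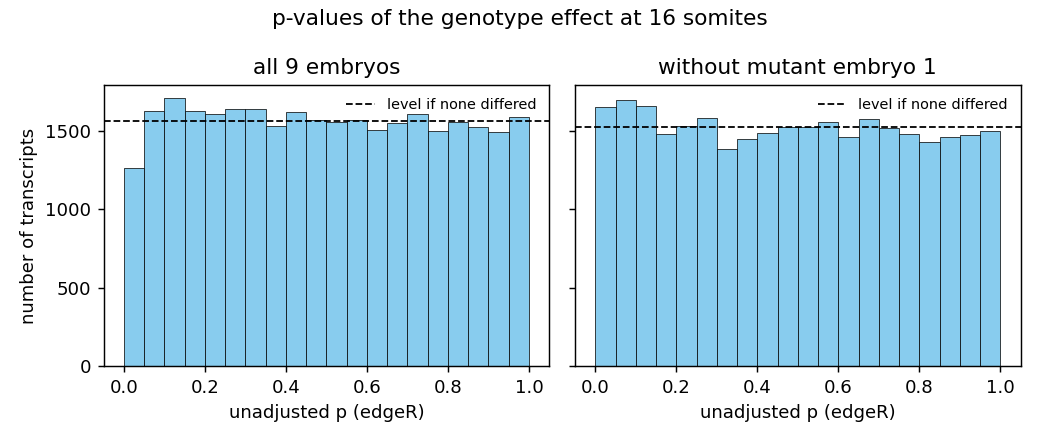
Number of tested transcripts (vertical axis) by unadjusted edgeR p for mutant against wild type at 16 somites (horizontal axis, bins of 0.05), with all 9 embryos (left) and without mutant embryo 1 (right). The dashed line is the level if no transcript differed, and the first bin holds 1263 transcripts on the left, below the line, and 1653 on the right, above it.

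How closely these embryos bounded a difference depended on abundance. The intervals given here are not adjusted for the number of transcripts tested. For the 1706 transcripts above 100 CPM the median half-width of the 95% confidence interval was 0.26 on the log2 scale with 9 embryos and 0.154 with 8. The whole interval lay within 2-fold of no difference for 96.3% of them, and within 1.5-fold for 77.7%. With embryo 1 left out these shares were 98.2% and 95.1% of 1724 transcripts. For the 8010 transcripts of 10 to 100 CPM, 87.6% had their interval within 2-fold, and for the 14172 of 1 to 10 CPM 38.6% did. Below 1 CPM the share was 2.7% of 7395, so that for most transcripts there the interval reached beyond 2-fold at this depth and number of embryos. The share with an unadjusted p under 0.05 increased with abundance, from 2.04% below 1 CPM to 8.56% above 100 CPM with 9 embryos, and from 1.94% to 14.5% with 8.

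The smallest p-values belonged to transcripts counted in one genotype and at 0 in the other. Salmon, the program named in the submitters' notes, divides reads among the transcripts of a gene by estimation, so a 0 here says that no read was assigned to that transcript, and the gene may have other transcripts with reads. With all 9 embryos, 9 transcripts had a rounded count of 0 in every wild-type embryo and a count in every mutant (0.0288% of those tested), and 4 had the opposite pattern (0.0128%). In the 8 embryos these numbers were 13 (0.0427%) and 8 (0.0263%), and 11 transcripts were in both sets. Where counted, the 13 transcripts found with 9 embryos had 6 to 1712 counts per library. Set against a floor of 3 counts per library, the lower bounds of their differences ran from 5.62-fold to 197-fold.

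The 2 transcripts of smallest p in each direction with all 9 embryos are named. ENSMUST00000043836.7, of 3552 bases, had counts of 20, 23, 28, 33 and 17 in mutant embryos 1 to 5 and 0 in the 4 wild-type embryos. The groups did not overlap, and its mean in mutants was 1.06 ± 0.219 normalized CPM (SD, n = 5), at least 8.26-fold higher than the floor in wild type. Its edgeR adjusted p was 0.508, and 0.343 without mutant embryo 1.

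ENSMUST00000103021.9, of 3398 bases, had 14, 17, 22, 30 and 17 counts in the mutants and 0 in every wild-type embryo. Its mutant mean was 0.874 ± 0.218 normalized CPM (SD, n = 5), at least 6.82-fold higher, with an edgeR adjusted p of 0.508. Both transcripts thus lay low, at 14 to 33 reads per mutant library.

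In the other direction, ENSMUST00000110062.7, of 3554 bases, had 32, 28, 57 and 17 counts in wild-type embryos 1 to 4 and 0 in all 5 mutants. Its wild-type mean was 1.35 ± 0.648 normalized CPM (SD, n = 4), so that mutants were at least 10.7-fold lower (edgeR adjusted p = 0.664). ENSMUST00000054622.14, of 4401 bases, had 20, 80, 66 and 101 counts in wild type and 0 in all 5 mutants. Mutants were at least 21.8-fold lower than the wild-type mean of 2.78 ± 1.54 normalized CPM (SD, n = 4), with an edgeR adjusted p of 0.664. Neither group overlapped the other for these transcripts, and wild-type embryo 4 was the lowest of its group for the first and the highest for the second. DESeq2 called all 4 named transcripts, with adjusted p from 4.67e-09 to 4.31e-06.

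The same transcripts varied in the 18 embryos of 12 to 14 somites, which took no part in their selection. ENSMUST00000043836.7, absent from wild type at 16 somites, had a count in 6 of the 12 younger wild-type embryos and in 1 of the 6 younger mutants. ENSMUST00000103021.9 had one in 4 of 12 and 3 of 6. The 2 transcripts at 0 in the mutants of 16 somites had counts in 5 of 6 and 4 of 6 younger mutants, and in 6 of 12 and 9 of 12 younger wild-type embryos. None of the 13 transcripts kept its pattern of presence and absence in these embryos: each had a count in 3 to 15 of the 18, with a median of 9, and 12 of the 13 had counts in both genotypes.

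The remaining transcript of the 13, singled out for these values, was of 4214 bases. It had 258, 94, 154, 54 and 221 counts in the mutants of 16 somites and 0 in every wild-type embryo of every stage, 16 in all. Among the younger mutants it had 0 and 261 counts at 12 somites, 71 and 170 at 13 somites, and 0 at 14 somites in both. At 16 somites it was at least 55.3-fold higher in mutants, and at least 44.4-fold without mutant embryo 1 (edgeR adjusted p = 0.508 and 0.343). In the 12 to 14 somite embryos a 2-sided exact permutation test gave p = 0.049, which is the smallest p it could give for a transcript counted in 3 of 18 embryos. The adjusted p over the 23 transcripts of either set was 0.859, so this test had no room to pass for it.

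**Figure D3:**
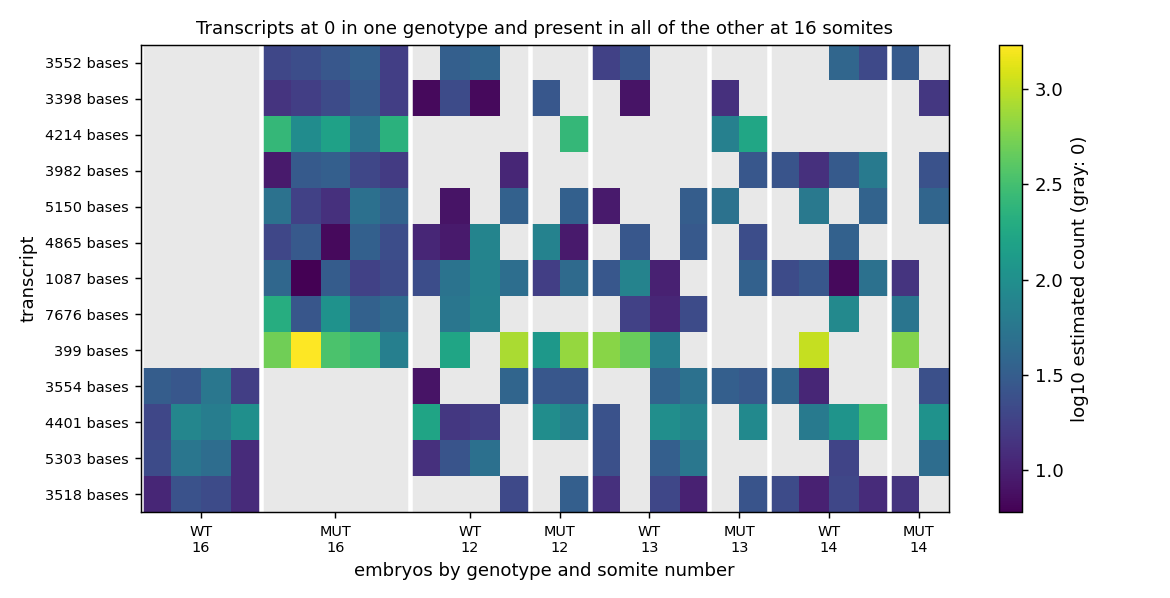
Estimated counts (log10 colour scale, gray for 0) of the 13 transcripts at 0 in every embryo of one genotype and above 0 in every embryo of the other at 16 somites, with transcripts labelled by length in rows and single embryos by genotype and somite number in columns. The 9 upper and 4 lower transcripts were picked for this pattern at 16 somites (left), and each has a count in 3 to 15 of the 18 younger embryos (right).

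When mutant embryo 1 was left out, other transcripts of this kind had the smallest p. A transcript of 1540 bases had 0 counts in all wild-type embryos and in mutant embryo 1, and 169, 88, 116 and 89 in mutant embryos 2 to 5. It was at least 38.6-fold higher without embryo 1 (edgeR adjusted p = 0.163), and with that embryo its edgeR adjusted p was 0.985. One of 7193 bases had 51, 53, 57 and 41 counts in mutant embryos 2 to 5 and 0 in the other 5 embryos (at least 16.9-fold, edgeR adjusted p = 0.163 without embryo 1). In both, mutant embryo 1 had the wild-type count of 0.

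Lower in the mutants without embryo 1 was a transcript of 2827 bases, with 52, 55, 72 and 45 counts in wild type, 91 in mutant embryo 1 and 0 in the other 4 mutants. It was at least 18.5-fold lower without embryo 1 (edgeR adjusted p = 0.163), whereas with it the edgeR adjusted p was 0.986. A transcript of 1512 bases had 72, 162, 74 and 40 counts in wild type, 52 in mutant embryo 1 and 0 in mutant embryos 2 to 5 (at least 28.5-fold lower without embryo 1, edgeR adjusted p = 0.343). Mutant embryo 1 was at 0 with wild type for the 2 higher transcripts, within the wild-type range of counts for the one of 1512 bases, and above every wild-type embryo for the one of 2827 bases. Transcripts of this kind that are found only without embryo 1 have to break the pattern in that embryo. DESeq2 called all 4 without embryo 1. With all 9 embryos DESeq2 still called the 2 higher transcripts (DESeq2 adjusted p = 1.58e-05 and 0.000868) and neither of the lower ones. For the 2 higher transcripts, a DESeq2 call therefore did not depend on leaving out embryo 1.

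Graded differences were sought among transcripts with a count in every embryo that averaged 1 CPM or more. With 9 embryos 7 of 20622 such transcripts had an unadjusted edgeR p under 0.001, 4 higher and 3 lower in mutants. With 8 embryos 23 of 21375 did, 15 higher and 8 lower. Over all tested transcripts 22 had an unadjusted edgeR p under 0.001 with 9 embryos, where 31 would be expected if none differed. With 8 embryos 44 did, where 30 would be expected. The smallest adjusted p among the graded transcripts was 0.985 with 9 embryos and 0.343 with 8. The 4 of smallest p in each direction with 9 embryos are described here, a choice made with their values known. None of these 8 passed the test, each with an edgeR adjusted p of 0.985. With DESeq2 all 8 passed, with adjusted p from 0.00107 to 0.0118.

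A transcript of 2077 bases had 0.951, 0.822, 0.715 and 0.747 normalized CPM in wild-type embryos and 3.2, 2.26, 1.77, 2.55 and 2.1 in mutants. The lowest mutant lay above the highest wild type, and the log2 difference was 1.55 (SE 0.29). A transcript of 4175 bases had 2.24, 2.1, 2.03 and 1.8 normalized CPM in wild type and 3.6, 3.88, 4.08, 4.36 and 5.74 in mutants, a log2 difference of 1.08 (SE 0.22). Here mutant embryo 1 was the lowest of its group, and still above every wild-type embryo. The second transcript was also higher in the mutants of 12 to 14 somites, by 0.93 on the log2 scale (edgeR adjusted p = 0.933).

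The other 2 higher transcripts were more abundant. One of 798 bases had 88.6, 88, 78.1 and 86.9 normalized CPM in wild type and 124, 109, 116, 112 and 101 in mutants, a log2 difference of 0.4 (SE 0.078). One of 1281 bases had 31.8, 29.1, 29.4 and 26 in wild type and 48, 37.5, 38, 38.6 and 41 in mutants, a log2 difference of 0.48 (SE 0.1). Mutant embryo 1 was the highest embryo for both, and without it the log2 differences were 0.36 and 0.41. In the younger embryos these transcripts differed by 0.23 and 0.2 in the same direction (edgeR adjusted p = 0.961 and 0.955).

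Of the lower transcripts, one of 2078 bases had 9.51, 7.52, 7.83 and 8.4 normalized CPM in wild type and 3.85, 3.79, 5.55, 5.14 and 4.33 in mutants (log2 difference -0.87, SE 0.17). One of 1146 bases had 2.93, 1.89, 1.55 and 3.52 in wild type and 0.812, 0.213, 0.673, 0.288 and 0.501 in mutants, a log2 difference of -2.3 (SE 0.47). One of 1394 bases had 78.2, 57.7, 50 and 77.5 in wild type and 27.5, 39.4, 37.7, 38.7 and 44.4 in mutants, a log2 difference of -0.81 (SE 0.17). In all 3 every mutant lay below every wild-type embryo at 16 somites. At 12 to 14 somites their log2 differences had the opposite sign, 0.29, 0.84 and 0.18, each with an edgeR adjusted p of 0.999.

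The fourth, of 1306 bases, had 15.3, 16.8, 17.6 and 17.7 normalized CPM in wild type and 13.1, 8.83, 10.5, 11.6 and 10.5 in mutants. Its log2 difference was -0.63 (SE 0.13), and without mutant embryo 1, the highest mutant, it was -0.7 (SE 0.11, edgeR adjusted p = 0.343). In the younger embryos it was -0.21 (edgeR adjusted p = 0.999).

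**Figure D4:**
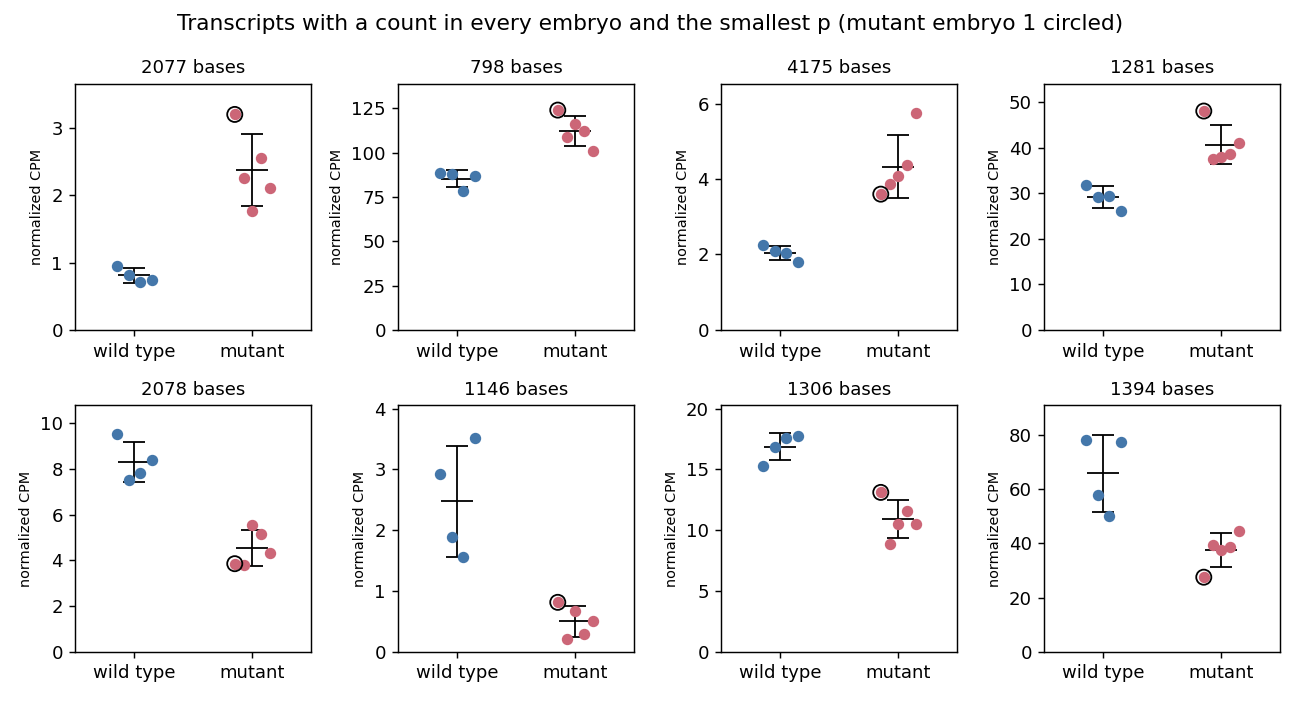
Normalized CPM in each wild-type (blue) and mutant (red) embryo at 16 somites for the 8 transcripts with a count in every embryo and the smallest p, 4 higher (top) and 4 lower (bottom), each titled by its length, with bars for the mean and SD. The genotypes do not overlap in any panel, and mutant embryo 1 (circled) is the highest mutant in 5 panels.

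Among the 4 graded transcripts of smallest p in each direction without mutant embryo 1, 5 were not among the 8 above, and they too were chosen with their values known. A transcript of 6330 bases had 396, 371, 411 and 371 normalized CPM in wild type, 307, 295, 309 and 325 in mutant embryos 2 to 5 and 435 in mutant embryo 1. Its log2 difference was -0.33 without that embryo (SE 0.051, edgeR adjusted p = 0.354) and -0.21 with it (edgeR adjusted p = 0.985). Mutant embryo 1 was thus the highest of all 9 embryos, and the other 4 mutants were the lowest.

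A transcript of 3536 bases had 27.9, 27.7, 25.6 and 30.3 normalized CPM in wild type, 21, 21.4, 21.2 and 21.2 in mutant embryos 2 to 5 and 8.12 in mutant embryo 1. Without that embryo its log2 difference was -0.4 (SE 0.069, edgeR adjusted p = 0.449). A transcript of 2232 bases had 89.3, 95.3, 80.2 and 93.7 in wild type and 188, 124, 137, 139 and 111 in mutants, with embryo 1 the highest. Its log2 difference was 0.51 without embryo 1 (SE 0.087, edgeR adjusted p = 0.449). At 12 to 14 somites the transcript of 2232 bases had 71.3 to 120 normalized CPM in wild type (median 106, n = 12) and 93.3 to 172 in mutants (median 140, n = 6). That log2 difference was 0.41 (edgeR adjusted p = 0.636), and those of the transcripts of 6330 and 3536 bases were -0.1 and -0.2 (edgeR adjusted p = 0.999 for both).

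The other 2 were of lower abundance. A transcript of 830 bases had 3.92, 3.78, 4.93 and 4.62 normalized CPM in wild type and 19.2, 9.17, 6.56, 8.63 and 7.88 in mutants, with a log2 difference of 0.9 without embryo 1 (SE 0.16, edgeR adjusted p = 0.458). A transcript of 2807 bases had 8.6, 9.54, 8.43 and 6.77 in wild type and 6.75, 2.3, 3.2, 4.52 and 2.51 in mutants, with a log2 difference of -1.41 without embryo 1 (SE 0.24, edgeR adjusted p = 0.449). Neither had overlapping genotypes, although mutant embryo 1 was far above the other mutants for the first and just below the lowest wild-type embryo for the second. At 12 to 14 somites their log2 differences were -0.24 and -0.33 (edgeR adjusted p = 0.999 for both). DESeq2 called all 5 without embryo 1, with adjusted p from 3.1e-06 to 0.0069.

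Complete separation of the genotypes was found for 400 transcripts higher (1.28% of those tested) and 425 lower (1.36%) in mutants with 9 embryos, after TMM scaling. If none differed, a transcript would separate in a given direction in 1 of the 126 splits of 9 embryos into 5 and 4. Without mutant embryo 1 the numbers were 662 (2.18%) and 592 (1.95%). With 8 embryos there are fewer splits and chance separation is more frequent, so the rise cannot be read as the effect of that embryo. By library totals alone, separation was found for 228 higher and 801 lower of the 31283 tested with 9 embryos. With 8 it was found for 370 and 1087 of 30423, so the balance between directions depended on scaling.

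Among abundant transcripts the direction differed between those under 1000 bases and longer ones, a pattern noticed in these embryos and given as a description. Of the 559 transcripts above 100 CPM and under 1000 bases, 85 (15.2%) were higher in mutants at an unadjusted edgeR p under 0.05 and 0 were lower, with 9 embryos. Of the 1147 longer ones, 37 (3.23%) were higher and 24 (2.09%) lower. The median log2 difference was 0.206 for the short transcripts and -0.027 for the longer ones. Without mutant embryo 1 the medians were 0.105 and -0.009, with 121 of 547 short transcripts (22.1%) higher and 1 lower, and 61 of 1177 longer ones higher and 67 lower. With upper quartile factors the short transcripts were still split 51 to 0 with 9 embryos and 71 to 1 with 8, and by library totals 28 to 2 and 56 to 16.

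Short abundant transcripts took 25.7%, 29.4%, 27.8% and 28.2% of the counts in wild-type embryos 1 to 4 at 16 somites. In mutant embryos 1 to 5 they took 37.6%, 31.7%, 30.4%, 29.7% and 30.4%. Mutant embryo 1 was far above the rest, and the lowest mutant, embryo 4, was just above the highest wild type, embryo 2. The means were 27.8% ± 1.54 (SD, n = 4) in wild type, 32% ± 3.23 (SD, n = 5) in mutants and 30.6% ± 0.835 (SD, n = 4) in the mutants without embryo 1. At 12 to 14 somites the shares were 21.9% to 31% in wild type (median 24.8%, n = 12) and 25.1% to 31.8% in mutants (median 26.4%, n = 6), and overlapped.

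The median deviation of short transcripts minus that of longer ones, per embryo on the log2 scale, was -0.038, 0.083, 0.016 and 0.064 in wild type. It was 0.747, 0.161, 0.185, 0.092 and 0.137 in the mutants. The groups did not overlap at 16 somites, by the small gap between 0.083 in wild-type embryo 2 and 0.092 in mutant embryo 4. At 12 to 14 somites wild type ranged from -0.559 to 0.194 (median -0.096) and mutants from -0.151 to 0.18 (median -0.034). In the fit of the 18 younger embryos, whose values did not enter the choice, the median log2 difference between genotypes was 0.154 for the 559 short transcripts and 0.055 for the 1147 longer ones. That gap of 0.1 stands beside 0.233 at 16 somites with all 9 embryos and 0.114 without mutant embryo 1. At an unadjusted edgeR p under 0.05 in the younger embryos, 25 of the 559 short transcripts were higher and 1 lower. Of the 1147 longer ones 49 were higher and 9 lower, so the shares higher were nearly alike, unlike those at 16 somites. Mutant embryo 1, with the largest value, also had the lowest total count, and the part of depth in the pattern was not tested.

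**Figure D5:**
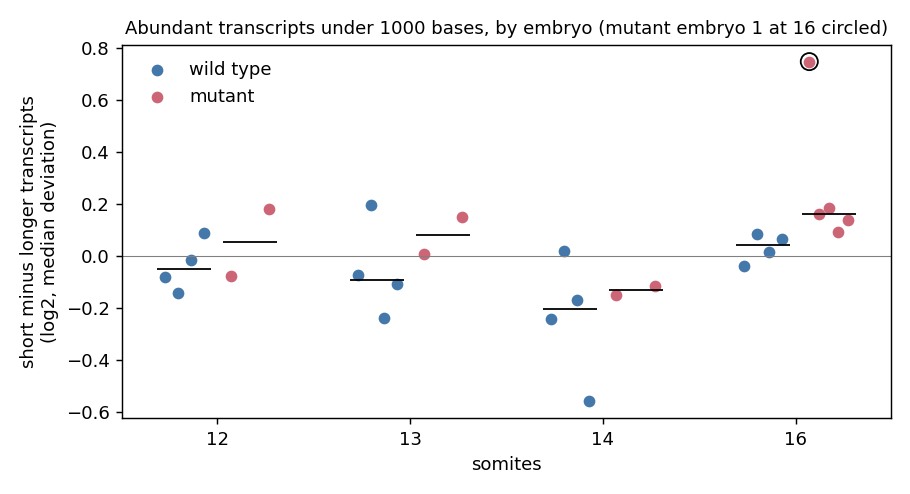
Median log2 deviation of transcripts above 100 CPM and under 1000 bases minus that of longer ones, in each wild-type (blue) and mutant (red) embryo by somite number, with a bar at each group's median. At 16 somites the 5 mutants lie above the 4 wild-type embryos, with mutant embryo 1 (circled) at 0.747, and at 12 to 14 somites the genotypes overlap.

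Directions at 16 somites were set beside those in the 18 embryos of 12 to 14 somites, which share no library with them. In those embryos 0 of 43328 tested transcripts passed (0%), and 2282 (5.27%) had an unadjusted edgeR p under 0.05, 934 higher (2.16%) and 1348 lower (3.11%) in mutants. Of 23881 transcripts averaging 1 CPM or more and tested in both, 14327 (60%) had the same sign at both. Of the 1112 with an unadjusted p under 0.05 at 16 somites, 856 (77%) did. At stricter limits the share was 69.2% of 156 (p under 0.01) and 63.6% of 11 (p under 0.001). Without mutant embryo 1 the shares were 58.2% of all such transcripts and 75.8% of 1523 at p under 0.05. They were then 77.2% of 290 at p under 0.01 and 62.5% of 32 at p under 0.001. An unadjusted p under 0.05 at both, with the same sign, was found for 135 transcripts with 9 embryos. They were 12.1% of the 1112 and 10.1% of the 1331 from 12 to 14 somites. Of all 23881, whatever their p at 16 somites, 1015 (4.25%) had such a p at 12 to 14 somites and the same sign. With 8 embryos the number was 172, which was 11.3% of the 1523 and 12.9% of 1330, beside 967 (4.07%) of all 23775. Transcripts are not independent replicates, so these shares carry no test.

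Whether the genotype difference at 16 somites departed from that at 12 to 14 somites was tested across all 27 tailbuds. Of 45394 transcripts 2 (0.00441%) had an edgeR adjusted p under 0.05, and 1881 (4.14%) had an unadjusted p under 0.05, 1349 of them (2.97%) with the mutants relatively higher at 16 somites and 532 (1.17%) relatively lower. For both called transcripts the genotypes overlapped at 16 somites. One, of 8943 bases, had 75, 100, 128 and 114 counts in wild type and 147, 131, 151, 73 and 101 in mutants at 16 somites (log2 difference 0.34, edgeR adjusted p = 0.985), and was at 0 in both mutants of 13 somites. The other, of 5192 bases, had 78, 79, 35 and 35 counts in wild type and 47, 51, 50, 37 and 32 in mutants (log2 difference -0.25, edgeR adjusted p = 0.987), and was at 0 in both mutants of 14 somites. Both calls therefore rested on 0 counts in 2 younger mutants, and 1 call was left without the mutants of 13 somites and 1 without those of 14 somites.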

How the data were processed

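The authors deposited 1 table per library with, per the file headers, TPM and an estimated count of reads beside the length and effective length of each of 117135 transcripts. The deposited TPM values (relative abundance per length and library) entered no test. Salmon 1.5.2, Trim Galore 0.5.0 and DESeq2 1.46.0, and the builds mm10 and hg38, are named per the submitters' processing notes, without their roles. The annotation release, strandedness and bias correction are not given in the sources used here.

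The deposited estimated counts were rounded. Tests used edgeR 4.0.16 under R 4.3.3: filterByExpr on genotype, TMM factors, glmQLFit and glmQLFTest, with Benjamini-Hochberg adjustment over all tested transcripts and a threshold of 0.05. SE is the log2 difference over the square root of F. Normalized CPM are counts scaled to the filtered, TMM-adjusted library size, and a group at 0 was set to a floor of 3 counts per library. Intervals cover 95%. DESeq2 1.42.0 and limma 3.58.1 (voom with quality weights) were alternatives, as were other scalings and filters, an effective-length offset, a replicate block, all 27 tailbuds in one fit, and leaving out each embryo. Counts within groups differed beyond sampling noise in all 16 pairs of embryos. The scripts were checked on simulated counts, and figures were drawn with matplotlib 3.10.9.

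The comparison, lists and rules were chosen with earlier results of these data known. The rule named the 2 transcripts higher and the 2 lower of smallest p per fit, and only those of the 9 embryos are printed by identifier. Gene lists, gene sums and a Y-linked covariate were planned and not run, because 0 identifiers matched the gene tables.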

Additional observations from a re-analysis of the deposited data

Results flagged for a closer look

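Groups of 4 or 5 embryos were searched for an embryo far from its group, in which chance marks about 1 in 20 groups. Of 62 comparisons 10 had one, and 9 of the 10 were mutant embryo 1. By chance 3.1 would be expected if nothing had been picked by its values, which does not hold for the transcripts here. Its mean correlation with its group was 0.814 (others 0.864 to 0.869), it lay outside all other embryos at 721 transcripts (other mutants 7 to 66), and it had 1480 transcripts at 0 (other mutants 569 to 735). Its normalized CPM stood apart at transcripts of 7193 bases (0.0, others 1.87 to 2.34), 2827 bases (4.62, others 0), 1512 bases (2.64, others 0), 830 bases (19.2, others 6.56 to 9.17), 6330 bases (435.0, others 295 to 325) and 3536 bases (8.12, others 21 to 21.4). The tenth was wild-type embryo 3 at the transcript of 798 bases, with 78.1 normalized CPM against 86.9 to 88.6. These transcripts were picked for their p-values, so the comparisons are not independent. Those at which mutant embryo 1 stood apart were picked in the fit without it, where close values in the other mutants favour a small p. Its place at these transcripts is therefore no separate sign that it lies apart.

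The genotype difference at 16 somites minus that at 12 to 14 somites passed edgeR's test for the transcript of 8943 bases (3.64 on the log2 scale, adjusted p = 0.000332) and for that of 5192 bases (2.97, adjusted p = 0.0311). Both fitted values depend on younger mutants at a count of 0.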

How the results depend on the processing

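With 9 embryos, where edgeR called 0 transcripts, DESeq2 called 112, and leaving out 1 embryo gave 0 to 2 calls. The 2, without wild-type embryo 3, had adjusted p = 0.0453 by edgeR. They were of 5074 and 6495 bases, at 0 in the other 3 wild-type embryos and with 58 and 93 counts in embryo 3. With 8 embryos, also at 0 calls, DESeq2 called 146, and leaving out 1 embryo gave 0 to 1. That 1, without mutant embryo 4, was of 4919 bases (edgeR adjusted p = 0.00883), with 257 counts in that embryo, 229 to 284 in wild type and 0 in mutant embryos 2, 3 and 5. The labels do not say whether embryo numbers pair the samples. Deviations of same-numbered embryos correlated at -0.096 to 0.016, and so few values cannot show that no pairing exists. With a replicate block on the numbers they share, 0 transcripts were called by edgeR with and without mutant embryo 1 (756 and 1157 at an unadjusted p under 0.05). The same libraries without the block gave 0 and 2 calls (1324 and 1616). For the difference between 16 and 12 to 14 somites, where edgeR called 2, DESeq2 called 177, the block left 1, leaving out 1 embryo gave 1 to 3, and leaving out the mutants of 13 or of 14 somites left 1 each. The 16 transcripts followed with 9 embryos and the 12 with 8 did not reverse direction in any alternative run that gave them an adjusted p. Other transcripts given here were not part of that count. The split of all transcripts of small p did reverse with other scalings. Of 287 values of single transcripts with 9 embryos, 273 stayed on their side of the threshold, and the other 14 passed it with DESeq2. With 8 embryos 192 of 204 stayed, and 12 passed it with DESeq2. The cause was not tested. Differences were bounded least closely below 1 CPM, where 2.7% of transcripts had an interval within 2-fold with 9 embryos.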
